A study of Homo sapiens with 6 samples.

Results

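Serpins are a family of structurally related proteins, most of which trap a protease on an exposed reactive loop and inactivate it irreversibly. Secreted members act in clotting, fibrinolysis, inflammation and matrix turnover, while most clade B members stay inside the cell and guard it against its own or foreign proteases. A few, such as SERPINF1 and SERPINH1, inhibit no protease and act as a secreted factor and as a collagen chaperone. In tumours the family is studied for its hold on proteolysis around cells, of which the urokinase system is one arm.

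The serpin genes were taken as the symbols made of SERPIN, a clade letter from A to I and a number, which gave 35 of the 26334 symbols in the deposited counts. RNA was measured in 6 libraries of MiaPaCa2, a human pancreatic ductal adenocarcinoma line. Of these, 3 came from clones in which CRISPR-Cas9 had deleted ZEB1, a transcription factor known for silencing epithelial genes (ZEB1-KO), and 3 from clones with the wild-type gene (WT). All 6 clones share one isolation route in the labels, the sorting of GFP-positive cells after electroporation with the Cas9-GFP plasmid pSpCas9-2A-GFP, and growth in medium with 10% serum. SMART-Seq2, a protocol that primes cDNA on poly(A) tails, was run on 2000 cells per clone. Each library stands for 1 clone, so the spread between libraries holds clone-to-clone differences, and nothing in the labels gives culture days or library batches.

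Total counts ran from 18909305 to 36798770 in ZEB1-KO libraries and from 26242238 to 42876693 in WT libraries. ZEB1 itself had 67, 140 and 369 counts in ZEB1-KO replicates 1, 2 and 3, against 1486, 1011 and 830 counts in WT replicates 1, 2 and 3. Its level was thus lower in each ZEB1-KO clone without reaching 0. KRT8 and KRT18, keratins of simple epithelia, were abundant, at 1940 CPM ± 268 and 2590 CPM ± 281 in ZEB1-KO clones and 817 CPM ± 84.4 and 1810 CPM ± 411 in WT clones (SD, n = 3 each). CPM are counts scaled to a common library size after TMM correction, not corrected for gene length. Of the other ductal and epithelial markers, KRT19 ranged from 145 to 337 CPM in ZEB1-KO and from 65.6 to 237 CPM in WT clones. MUC1 ranged from 3.99 to 9.34 CPM in ZEB1-KO and from 1.6 to 4.17 CPM in WT clones. KRT7, CDH1, EPCAM and CFTR had at most 25, 4, 2 and 0 counts in any library. Markers of other cell types were low. The summed level of 7 acinar markers was 0 to 0.2 CPM in ZEB1-KO and 0.0229 to 0.162 CPM in WT libraries, and that of 6 liver markers was 0.778 to 0.948 CPM in ZEB1-KO and 0.916 to 1.42 CPM in WT libraries. DCN and LUM of fibroblasts and CD3E and HBB of blood cells were at 0 counts throughout. The 6 fibroblast markers summed to 0.766 to 60.0 CPM in ZEB1-KO and 0.664 to 18.4 CPM in WT libraries, mostly COL3A1. The sums were 4.0 to 6.88 CPM in ZEB1-KO and 2.31 to 14.8 CPM in WT libraries for 5 blood markers, and 0.618 to 3.14 CPM in ZEB1-KO and 0.284 to 0.939 CPM in WT libraries for 4 endothelial markers. The part of these markers in the serpin values was not tested.

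Promoter windows from RefSeq (GRCh38.p14) ran from 250 bases before to 50 after an annotated start. They were searched for the E-box CAGGTG and its reverse complement CACCTG, letters that ZEB1 is known to bind. No other form of the site was searched for. Windows were found for 27 of 34 serpins, and that of SERPINF1 is not among them. At least 1 E-box stood in 11 of 41 serpin windows (26.8%), beside 20.6% of all 35116 windows in the table. Among the 10 serpins expressed well enough to be tested, 3 of the 9 with a window held one (33.3%), beside 24.1% of all symbols in the table, and they did so in 3 of 15 windows (20.0%). These 30-base stretches are shown with the E-box in capitals, since they are where it occurs in the windows of the tested serpins.
SERPINH1: cccagcccgaccCAGGTGaggggcgggaga
SERPINI1: aggaggccgctcCAGGTGtgagccacagag
SERPINA1: gggcaggtacaaCAGGTGacatgccgggct
The SERPINH1 stretch lies at chr11:75562305-75562334 on the plus strand, with the E-box beginning 156 bases before the second of its 2 annotated starts. The SERPINI1 stretch lies at chr3:167735478-167735507 on the plus strand, 231 bases before the start by the same measure. The SERPINA1 stretch lies at chr14:94390810-94390839 on the minus strand, 192 bases before 1 of its 2 annotated starts. The windows of SERPINA3, SERPINB1, SERPINB6, SERPINB8, SERPINB9 and SERPINE2 did not hold this E-box or its reverse complement. A match describes the sequence and is not a measured binding site.

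Most of the family gave few or no counts in these cells. Of 34 serpins, 9 had 0 counts in all 6 libraries, which allows up to 3 counts, or 0.0687 to 0.150 CPM depending on the library, and covers counting error only. These were SERPINA2, SERPINA4, SERPINA9, SERPINA11, SERPINA12, SERPINB3, SERPINB4, SERPINB10 and SERPING1, the last the inhibitor of the first complement component. SERPINA2 is a transcribed pseudogene in RefSeq, and SERPINB3 and SERPINB4 are near-identical copies whose reads could be split. Another 12 reached no more than 4 counts in any library. They include SERPINC1, the gene of antithrombin, SERPINF2, the inhibitor of plasmin, SERPINB2, an inhibitor of urokinase, and SERPINB5, known as maspin, with a single count in ZEB1-KO replicate 2. The other 8 of these were SERPINA6, SERPINA7, SERPINB7, SERPINB11, SERPINB12, SERPINB13, SERPIND1 and SERPINI2. The remaining 3 outside the test had a few counts more. SERPINA10, an inhibitor of clotting factor X, had 1, 4 and 6 counts in ZEB1-KO replicates 1, 2 and 3, against 10, 3 and 7 counts in WT replicates 1, 2 and 3. SERPINA5, the inhibitor of activated protein C, had 9 counts in ZEB1-KO replicate 3 and 0 in the other ZEB1-KO libraries, against 2, 0 and 11 counts in WT replicates 1, 2 and 3. SERPINE3 had 2, 8 and 2 counts in ZEB1-KO replicates 1, 2 and 3, against 3, 1 and 1 counts in WT replicates 1, 2 and 3. SERPINC1 had 1, 0 and 2 counts in ZEB1-KO replicates 1, 2 and 3, against 4, 4 and 2 counts in WT replicates 1, 2 and 3. Its groups did not overlap on the CPM scale. These 24 genes were outside the test, and no difference was read from so few counts.

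The 10 serpins described from the test were SERPINA1 and SERPINA3 of clade A, SERPINB1, SERPINB6, SERPINB8 and SERPINB9 of clade B, SERPINE2 of clade E, and SERPINF1, SERPINH1 and SERPINI1. The deposited TPM table, in which levels are scaled by gene length, lists all of these except SERPINA1. By mean TPM in ZEB1-KO clones, SERPINB6 led with 126 TPM ± 60.2, then SERPINB1 with 39.2 TPM ± 1.42 (SD, n = 3 each). SERPINH1 (26.5 TPM ± 14.5) and SERPINB9 (25.3 TPM ± 6.94) followed and did not differ beyond their spread. In WT clones SERPINB6 also led by mean TPM, with 96.9 TPM ± 40.2, followed by SERPINA3 with 49.4 TPM ± 61.0, SERPINB1 with 31.0 TPM ± 3.22 and SERPINB9 with 21.2 TPM ± 7.35 (SD, n = 3 each). SERPINI1 was low in both groups, at 2.74 TPM ± 1.54 in ZEB1-KO and 2.57 TPM ± 2.73 in WT clones (SD, n = 3 each).

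The summed TPM of these 9 genes was 195, 323 and 253 in ZEB1-KO replicates 1, 2 and 3, against 145, 229 and 392 in WT replicates 1, 2 and 3. The groups overlapped. The 4 clade B genes made up 85.6%, 85.0% and 60.2% of that sum in ZEB1-KO replicates 1, 2 and 3 and 75.1%, 79.4% and 48.4% in WT replicates 1, 2 and 3. Replicate 3 of each group had the lowest clade B share, and in both libraries SERPINA3 and SERPINE2 took a large part of the sum.

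**Figure D1:**
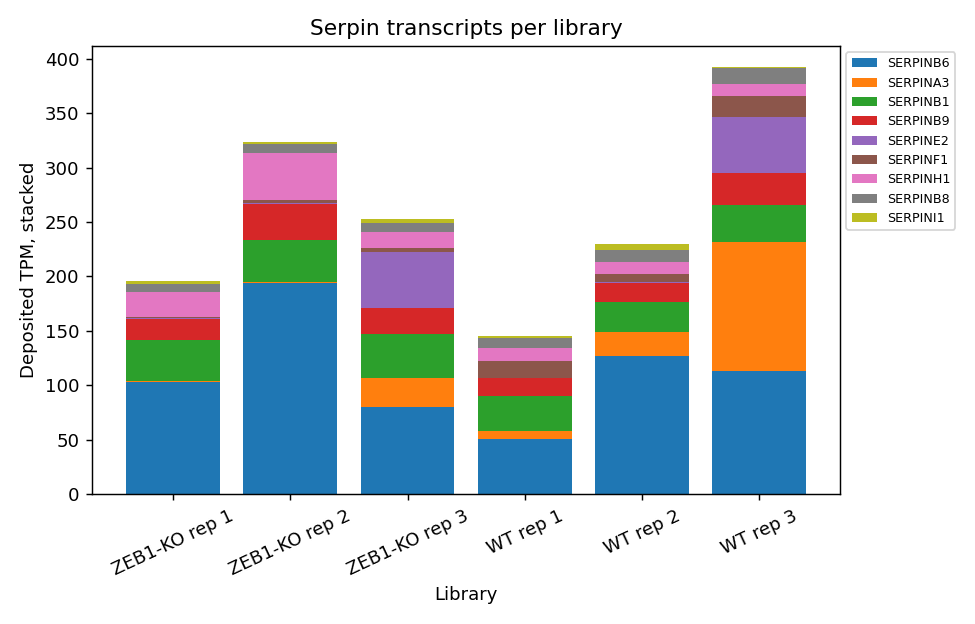
Deposited TPM of 9 serpin genes, stacked for each library (bar from 0; ZEB1-KO clones left, WT clones right; 1 clone per bar, no error). SERPINB6 was the largest part in all bars except WT replicate 3, where SERPINA3 made up 30.4%.

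By edgeR's quasi-likelihood test, 0 of the 10 serpins passed an adjusted p of 0.05, beside 0.176% of the 13659 genes in the fit. ZEB1 itself did not pass it either, at -2.43 ± 0.49 (SE) on the log2 scale with an adjusted p of 0.093. DESeq2 gave ZEB1 an adjusted p of 3.28e-05. Below an adjusted p of 0.1 there was 1 of 10, SERPINF1, beside 1.79% of genes. At an unadjusted p below 0.05 there were 3 of 10, beside 17.7% of all genes. SERPINH1 had a log2 fold change above 0 (9.64% of all genes met both conditions), and SERPINF1 and SERPINB8 below 0 (8.04%). DESeq2 called 1 of the 9 serpins to which it gave an adjusted p, beside 7.12% of its genes. edgeR's likelihood ratio test called 1 of 10, beside 4.52%, and limma-voom called 0 of 10, beside 0.154%. In both tests that made a call it was SERPINF1, lower in ZEB1-KO clones. The authors' deposited table likewise has 1 of the 9 serpins, SERPINF1, at an adjusted p below 0.05, beside 4.75% of its genes. The 3 ZEB1-KO values did not overlap the 3 WT values for 3 of 10 serpins on the CPM scale, beside 23.6% of all genes, and for 4 of 9 on the deposited TPM scale, beside 28.1% of its genes, SERPINB1 being the one added. SERPINH1 lay higher in ZEB1-KO clones, beside 11.9% of genes, and both SERPINF1 and SERPINB8 lower, beside 11.7%. An exact permutation test of 3 against 3 clones cannot go below p = 0.1. The median log2 fold change of the 10 was -0.16, with 3 above 0, beside -0.01 over all genes tested.

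**Figure D2:**
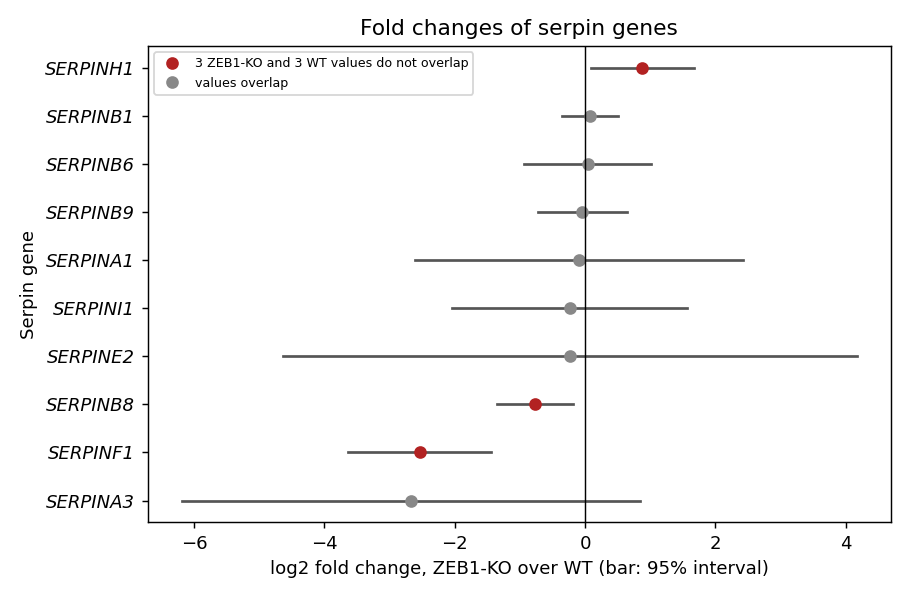
Log2 fold change of 10 tested serpins, ZEB1-KO over WT (x axis), with 95% intervals from the quasi-likelihood fit as bars and genes down the page. Red points mark the 3 genes whose ZEB1-KO and WT values did not overlap, and the widest bars belong to SERPINE2 and SERPINA3.

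SERPINE2, a clade E gene, encodes protease nexin-1, a cell-bound inhibitor of thrombin and urokinase, and differed widely between clones of one genotype. It had 43, 42 and 3045 counts in ZEB1-KO replicates 1, 2 and 3, against 23, 59 and 2784 counts in WT replicates 1, 2 and 3. On the CPM scale these were 2.15, 1.04 and 94.8 CPM in ZEB1-KO and 0.527, 1.82 and 113 CPM in WT clones. Replicate 3 of each group was high and the other 4 clones were low, so the highest clone of a group exceeded its lowest 91.4-fold in ZEB1-KO and 214-fold in WT. The log2 fold change was -0.23 ± 1.92 (SE; adjusted p = 0.961, edgeR's quasi-likelihood test). Leaving out ZEB1-KO replicate 3 gave -4.62 and leaving out WT replicate 3 gave 4.82, neither past 0.05, so no difference between genotypes could be read from this gene. DESeq2 gave it no adjusted p. In these bulk libraries, fewer cells that carry a transcript and less transcript per cell cannot be told apart.

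The plasminogen activators, on which several serpins act, were read beside them. PLAU, urokinase, had 93.8, 68.9 and 79.3 TPM in ZEB1-KO replicates 1, 2 and 3, against 38.4, 92.2 and 62.8 TPM in WT replicates 1, 2 and 3. The groups overlapped, at 0.02 ± 0.37 (SE) on the log2 scale with an adjusted p of 0.979 by edgeR's quasi-likelihood test. PLAT, the tissue-type activator, had 2 to 17 counts in ZEB1-KO and 2 to 19 counts in WT libraries. PLAUR, the urokinase receptor, averaged 21.8 CPM ± 6.97 in ZEB1-KO and 49.8 CPM ± 32.7 in WT clones (SD, n = 3 each). On the CPM scale its groups did not overlap, with WT replicates 1, 2 and 3 at 30.7, 31.3 and 87.5 CPM. On the deposited TPM scale they did, at 19.8, 12.8 and 22.3 TPM in ZEB1-KO and 23.7, 20.2 and 60.9 TPM in WT clones. The adjusted p of PLAUR was 0.225 in the quasi-likelihood test, at -1.19 on the log2 scale.

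**Figure D3:**
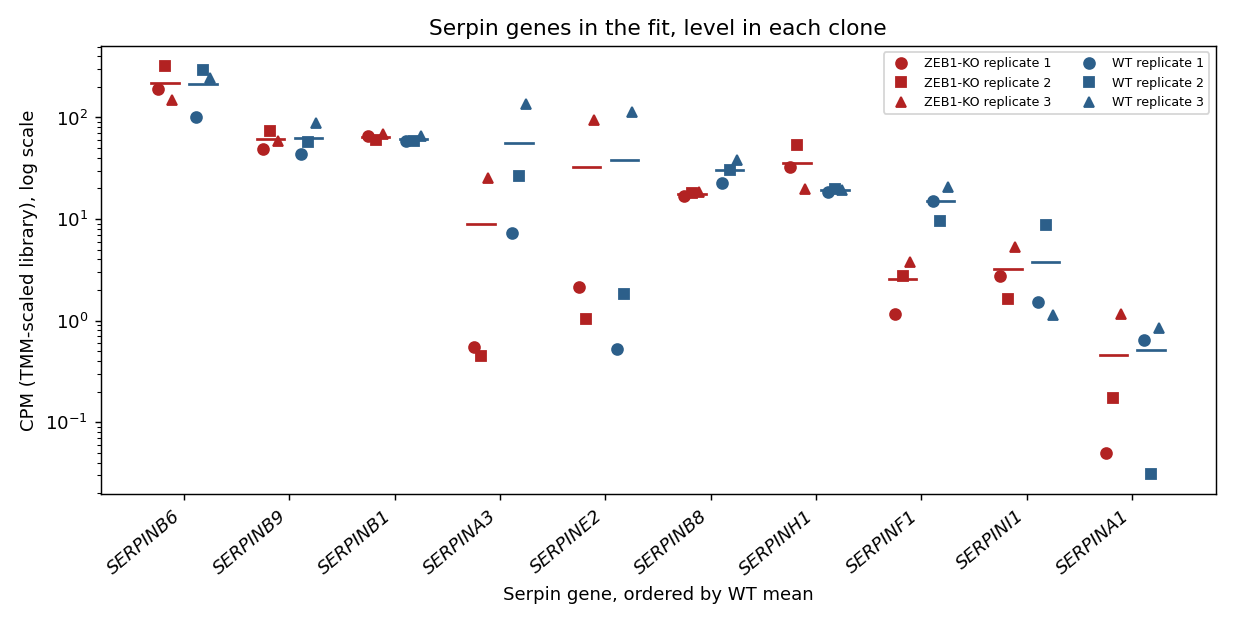
Level of 10 tested serpins in each clone, in CPM on a log scale (y axis), with ZEB1-KO in red left of WT in blue, 1 symbol per replicate number and a line at each mean. SERPINF1 and SERPINB8 lay lower and SERPINH1 higher in ZEB1-KO clones without overlap, while SERPINE2 was high in replicate 3 of both groups.

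SERPINA3, the secreted inhibitor of cathepsin G and chymase known as antichymotrypsin, also varied widely. It had 11, 18 and 819 counts in ZEB1-KO replicates 1, 2 and 3, against 321, 865 and 3348 counts in WT replicates 1, 2 and 3. Replicate 3 was again the highest clone of each group, and its ZEB1-KO value of 25.5 CPM lay within the WT range of 7.35 to 136 CPM. The means were 8.83 CPM ± 14.4 in ZEB1-KO and 56.6 CPM ± 69.2 in WT clones (SD, n = 3 each). The log2 fold change was -2.67 ± 1.54 (SE; adjusted p = 0.397, edgeR's quasi-likelihood test). Without ZEB1-KO replicate 3 it was -6.84 with an adjusted p of 0.0952, and without WT replicate 3 it was -0.93. SERPINA1, the gene of antitrypsin and the best-known inhibitor of neutrophil elastase, was near the detection limit, with 1, 7 and 37 counts in ZEB1-KO replicates 1, 2 and 3, against 28, 1 and 21 counts in WT replicates 1, 2 and 3. Its groups overlapped, and the log2 fold change was -0.10 ± 1.10 (SE).

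SERPINF1 encodes pigment epithelium-derived factor, a secreted serpin without inhibitory activity that restrains blood vessel growth. It had 23, 111 and 121 counts in ZEB1-KO replicates 1, 2 and 3, against 653, 310 and 508 counts in WT replicates 1, 2 and 3. On the CPM scale these were 1.15, 2.74 and 3.77 CPM in ZEB1-KO and 15, 9.56 and 20.6 CPM in WT clones. Each ZEB1-KO clone lay below each WT clone. The means were 2.55 CPM ± 1.32 in ZEB1-KO and 15 CPM ± 5.51 in WT clones (SD, n = 3 each). The fitted difference was -2.54 ± 0.48 (SE) on the log2 scale, or 5.83-fold lower in ZEB1-KO clones. With edgeR's quasi-likelihood test the adjusted p was 0.0885, short of 0.05, and the p ranked 92 of 13659 genes. DESeq2 gave an adjusted p of 7.86e-06 and the likelihood ratio test 0.000262, and the authors' deposited table lists -2.55 on the log2 scale and an adjusted p of 0.000164. Without each library in turn the log2 fold change stayed between -2.92 and -2.21. PNPLA2, a lipase described as a receptor of this factor, had 24 to 116 counts in ZEB1-KO and 31 to 67 counts in WT libraries, which overlapped.

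SERPINH1 encodes the collagen-specific chaperone of the endoplasmic reticulum. It had 32.9, 53.4 and 19.7 CPM in ZEB1-KO replicates 1, 2 and 3, against 18.6, 19.6 and 19.4 CPM in WT replicates 1, 2 and 3. The WT clones were nearly equal, and ZEB1-KO replicate 3 was only just above the highest of them. The log2 fold change was 0.88 ± 0.35 (SE), and its adjusted p of 0.237 by edgeR's quasi-likelihood test missed 0.05. Without ZEB1-KO replicate 2 it was 0.45, and without ZEB1-KO replicate 3 it was 1.17 with an adjusted p of 0.108.

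Genes that modify or fold collagen beside SERPINH1 were mostly above 0. Of 17 tested members of that list, 15 lay above 0 on the log2 scale, beside 6753 of all 13659 genes, and the list's median was 0.38 beside -0.01 over all genes. Some of these signs came from ZEB1-KO replicate 2. PLOD3 had 27.7, 77.2 and 30.5 CPM in ZEB1-KO replicates 1, 2 and 3, against 34.7, 41.7 and 32.4 CPM in WT. P3H1 had 30.6, 54.4 and 26.5 CPM in ZEB1-KO, against 37.2, 35.6 and 26.0 CPM in WT clones. The number past 0.05 by edgeR's quasi-likelihood test was 0, with 5 above 0 at an unadjusted p below 0.05 (9.64% of all genes), 0 below 0 (8.04%), and 3 called higher by DESeq2 (4.34%). BMP1, the procollagen C-proteinase, averaged 8.28 CPM ± 4.84 in ZEB1-KO and 1.39 CPM ± 0.189 in WT clones, and P3H2, a prolyl hydroxylase of collagen, 50.6 CPM ± 25.7 in ZEB1-KO and 8.54 CPM ± 3.21 in WT clones (SD, n = 3 each). Their log2 fold changes of 2.58 and 2.57 had adjusted p-values of 0.0885 and 0.0891 in the quasi-likelihood test. By that test both passed 0.05 without a filter and without ZEB1-KO replicate 3, but not without any other single library. DESeq2 gave 1.08e-05 for BMP1 and 5.42e-06 for P3H2. The likelihood ratio test gave 0.000447 and 0.000246, and limma-voom 0.103 and 0.101. DESeq2 also called P4HA2, at 1.83 ± 0.51 (SE) on the log2 scale in the quasi-likelihood fit, although its groups overlapped. PLOD1, a lysyl hydroxylase, had a log2 fold change of 0.97 and was not called by DESeq2 (adjusted p = 0.105). BMP1, P3H2, PLOD1 and P4HB were the 4 of 17 that did not overlap between groups, each higher in ZEB1-KO clones, beside 11.9% of all genes.

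The clade B serpins act mostly inside the cell. SERPINB1, an inhibitor of neutrophil proteases, varied little, with its highest clone 1.15-fold above its lowest in ZEB1-KO and 1.14-fold in WT. It had 65.0, 59.4 and 68.5 CPM in ZEB1-KO replicates 1, 2 and 3, against 58.3, 58.8 and 66.4 CPM in WT replicates 1, 2 and 3, and the groups overlapped. On the deposited TPM scale they did not, at 37.8, 39.2 and 40.6 TPM in ZEB1-KO and 32.3, 27.3 and 33.3 TPM in WT clones. The log2 fold change of SERPINB1 was 0.07 from counts (95% interval -0.35 to 0.50) and 0.34 ± 0.19 (SE) on log2(TPM + 1), where limma gave an adjusted p of 0.320. SERPINB6, an inhibitor of trypsin-like proteases and cathepsin G, had 192, 319 and 147 CPM in ZEB1-KO replicates 1, 2 and 3, against 100 (WT replicate 1), 296 (WT replicate 2) and 244 CPM (WT replicate 3). Its highest values in both groups were those of replicate 2, and its log2 fold change of 0.04 had a 95% interval of -0.94 to 1.01. SERPINB9, the inhibitor of granzyme B, had 49.4, 74.0 and 59.0 CPM in ZEB1-KO replicates 1, 2 and 3, against 43.3, 56.8 and 87.8 CPM in WT replicates 1, 2 and 3. The groups overlapped, with a log2 fold change of -0.04 and a 95% interval of -0.72 to 0.64. GZMB, the gene of granzyme B itself, was at 0 counts in all libraries. These 3 genes lie together on chromosome 6, and adjusted p-values for them lay between 0.866 and 0.969 in edgeR's quasi-likelihood test.

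SERPINB8, a clade B gene of chromosome 18 whose product inhibits the proprotein convertase furin, differed from those 3 in pattern. It had 16.7, 18.1 and 18.3 CPM in ZEB1-KO replicates 1, 2 and 3, against 22.4, 30.2 and 38.1 CPM in WT replicates 1, 2 and 3. Each ZEB1-KO clone lay below each WT clone, and the ZEB1-KO clones were nearly equal. The log2 fold change was -0.77 ± 0.25 (SE), and its adjusted p of 0.176 by edgeR's quasi-likelihood test missed 0.05, while DESeq2 gave 0.0973. FURIN averaged 3.43 CPM ± 0.707 in ZEB1-KO and 1.94 CPM ± 0.679 in WT clones (SD, n = 3 each). Its groups did not overlap on the CPM scale, with ZEB1-KO clones higher, beside 11.9% of all genes. ZEB1-KO replicate 3, at 2.61 CPM, was only just above WT replicate 3, at 2.51 CPM. The log2 fold change of FURIN was 0.82 ± 0.39 (SE), with an adjusted p of 0.311 in the quasi-likelihood test.

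SERPINI1 encodes neuroserpin, an inhibitor of tissue-type plasminogen activator known mainly from neurons. It had 55, 66 and 172 counts in ZEB1-KO replicates 1, 2 and 3, against 67, 284 and 28 counts in WT replicates 1, 2 and 3. The groups overlapped, with WT replicate 2 the highest of the 6 on the CPM scale at 8.76 CPM. Its log2 fold change was -0.23 ± 0.79 (SE), and without WT replicate 2 it was 1.28, not past 0.05.

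The spread among clones of one genotype differed widely from serpin to serpin. The SD of log2(CPM + 0.5) among clones had a median of 0.71 over the 10 serpins in ZEB1-KO and 0.63 in WT, against medians of 0.32 and 0.28 over all genes tested in ZEB1-KO and WT. SERPINE2 had a larger SD than 99.9% of genes tested in both groups, and SERPINA3 than 99.8% in ZEB1-KO and 99.5% in WT. SERPINB1 was at the other end, above 7.74% of genes in ZEB1-KO and 10.4% in WT. SERPINH1 and SERPINB8 were unlike in the 2 groups. SERPINH1 had an SD of 0.71 in ZEB1-KO and 0.04 in WT clones, and SERPINB8 one of 0.07 in ZEB1-KO and 0.38 in WT clones. These are descriptions over 3 clones each, and the difference in spread between groups was not tested.

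**Figure D4:**
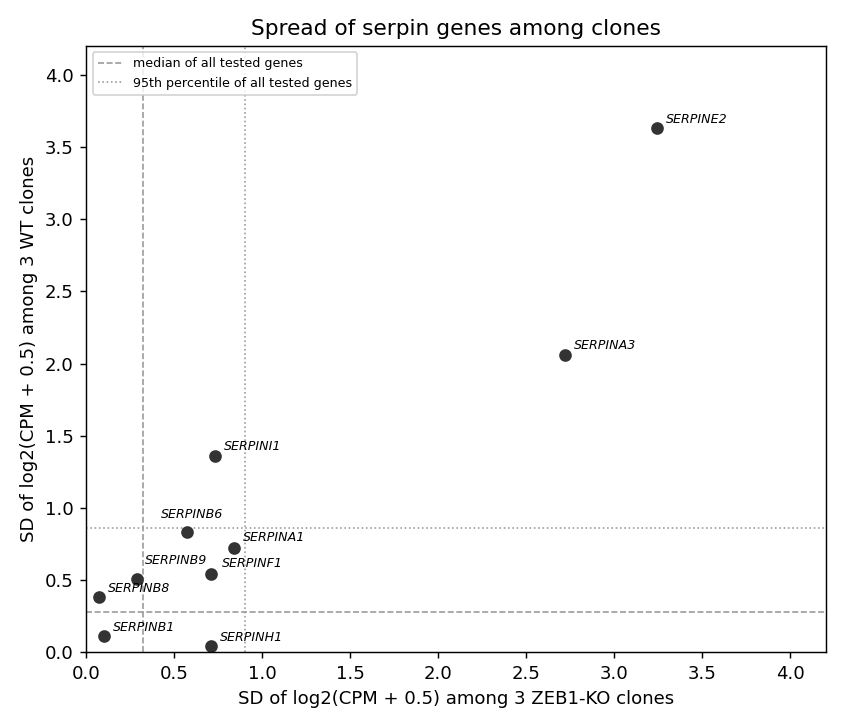
SD of log2(CPM + 0.5) of each tested serpin among the 3 ZEB1-KO clones (x axis) and among the 3 WT clones (y axis), with the median (dashed) and 95th percentile (dotted) of all tested genes. SERPINE2 and SERPINA3 lie beyond the 95th percentile in both groups, while SERPINB1 lies below the median in both.

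Genes next to the serpins on their chromosomes were also described. Among tested genes within 2 Mb (RefSeq gene order, GRCh38.p14; serpins left out), the median log2 fold change was 0.05 over 43 genes around SERPINF1, -0.08 over 28 around SERPINH1 and 0.02 over 8 around SERPINB8. Around SERPINE2 it was 0.37 over 10 genes and around SERPINI1 0.27 over 8, and 0 neighbours of these 10 serpins passed 0.05 in the quasi-likelihood test. SERPINB9 overlaps the antisense gene SERPINB9-AS1 in RefSeq, and because the protocol keeps no strand, their reads cannot be told apart.

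Over all 5 partner lists, the collagen list included, 66 genes were tested and 0 passed an adjusted p of 0.05 by edgeR. At an unadjusted p below 0.05 there were 6 above 0 and 4 below 0, beside 9.64% and 8.04% of all genes. The collagen list held 5 of those 6 and 0 of those 4. DESeq2 called 4 higher and 1 lower, beside 4.34% and 2.78% of its genes. Of those 4 called higher, 3 were in the collagen list. Of 14 tested serine proteases that serpins act on, 11 lay above 0 on the log2 scale, the list's median being 0.35, with 0 at an unadjusted p below 0.05. The kallikrein KLK6 was the most abundant of them, with 4572, 45789 and 62748 counts in ZEB1-KO replicates 1, 2 and 3, against 156, 39215 and 36722 counts in WT replicates 1, 2 and 3, so that WT replicate 1 stood apart. The other tested kallikreins, KLK5, KLK7, KLK8 and KLK10, were also lowest in WT replicate 1, at 0.344, 0.573, 0.0229 and 0.0916 CPM. All of these kallikreins except KLK8 lay above 0 on the log2 scale. Of 16 tested cysteine proteases, 9 were above 0 with a median of 0.14, and 0 above 0 and 2 below 0 had an unadjusted p below 0.05. These were CTSC, cathepsin C, at -2.40 ± 0.85 (SE) on the log2 scale with overlapping groups, and CTSO, cathepsin O, at -1.04 ± 0.42 (SE) without overlap. CASP10, a caspase, had a log2 fold change of -0.32. Of 13 tested receptors and cofactors, 6 were above 0, with a median of 0.00. Among 6 tested inhibitors of other families the median was -0.12. SPINT2, a Kunitz-type inhibitor of the cell surface, averaged 119 CPM ± 28.9 in ZEB1-KO and 15.2 CPM ± 8.25 in WT clones (SD, n = 3 each). TIMP2, an inhibitor of matrix metalloproteinases, averaged 132 CPM ± 13.8 in ZEB1-KO and 280 CPM ± 71.3 in WT clones (SD, n = 3 each). Their log2 fold changes of 2.97 and -1.09 had adjusted p-values of 0.0544 and 0.0981 in the quasi-likelihood test. DESeq2 gave 1.25e-09 for SPINT2 and 0.00574 for TIMP2. The likelihood ratio test gave 2.25e-07 and 0.0132, and limma-voom 0.0394 and 0.111.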

How the data were processed

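Deposited by the authors were read counts for 26334 gene symbols without normalization, TPM values for 11013 of them, which correct for gene length and depth, and edgeR results for the same subset with log2 fold changes, a likelihood ratio score and p-values, per the file headers. The submitters' processing notes name TopHat2 2.1.0, HTSeq 0.6.1 and edgeR 3.2.2 with builds hg19 and GRCh37. The sources used here give neither the gene lengths nor the filter behind the subset.

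Testing of the deposited counts used edgeR 4.0.16 (R 4.3.3). Genes kept by filterByExpr (minimum count 10, minimum total 15) were scaled with TMM and tested with glmQLFit and glmQLFTest, with group alone in the model, two-sided, and with Benjamini-Hochberg adjustment over 13659 genes at a threshold of 0.05. Degrees of freedom were 4 residual and 4.35 prior, and SEs and 95% intervals were derived from the F statistic. The quasi-likelihood script was tested on simulated data. DESeq2 1.42.0, edgeR's likelihood ratio test, limma-voom (limma 3.58.1), other scalings and filters, limma on log2 values of TPM with 1 or 0.1 added (genes with a mean TPM from 1 up, or unfiltered), the replicate number as a block and each library left out were tried. Leaving out both libraries numbered 3 and an adjusted p below 0.1 were chosen after seeing the data. DESeq2 used all symbols with its own filter. No 2 libraries of a group held identical counts: the chi-square per gene between libraries of one group was never below 117.

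The rule named every tested serpin, the others by their counts, and from each partner list the genes past the threshold and then up to 3 of largest change without overlap and at least 5 CPM in the higher group. PLAU, PLAT, FURIN, GZMB and PNPLA2 were named outside it as known targets or receptors. Named after their values were seen were KLK5, KLK6, KLK7, KLK8, KLK10, P4HA2, P4HB, PLOD3, P3H1, CTSC and CTSO. Members and lists were chosen with earlier results of these data known. RefSeq tables gave promoter windows and gene order. Of the 35 serpin symbols, 1 is not reported here and is left out of every count over serpins. The labels call the libraries separate clones.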

Additional observations from a re-analysis of the deposited data

How the results depend on the processing

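The direction of SERPINF1, SERPINB8, SERPINH1, SERPINA3 and SERPINB1 was the same in all 19 alternatives run for each, and only SERPINF1 passed 0.05 in any. The number of serpins past the threshold was 1 without a filter, 1 with DESeq2, 1 with the likelihood ratio test and 1 at an adjusted p below 0.1, each time SERPINF1, and 0 in the other alternatives, including each one that left out a library (0 to 0), with 1 to 4 serpins at an unadjusted p below 0.05 in these. Over all genes the count of 24 became 134 without a filter, 935 with DESeq2, 617 with the likelihood ratio test, 245 at an adjusted p below 0.1, 101 and 94 with TPM plus 1 and plus 0.1, 80 with unfiltered TPM, 5 to 25 without one library and 0 without both libraries numbered 3 (1956 at an unadjusted p below 0.05). Listed partner genes past the threshold numbered 1 with library size alone, 3 without a filter, 5 with DESeq2, 5 with the likelihood ratio test, 1 with limma-voom, 1 with each use of TPM, 4 at an adjusted p below 0.1 and 0 to 2 without one library.

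SERPINB9, SERPINE2, SERPINI1, SERPINA1 and SERPINB6, with log2 fold changes near 0, changed sign, none past 0.05 in any alternative. SERPINB9 went to 0.12 with library size alone, 0.01 with limma-voom, 0.26 and 0.27 with filtered TPM, 0.26 with unfiltered TPM and 0.30 without both libraries numbered 3. SERPINE2 was 0.58 with limma-voom, 0.21 and 0.49 with filtered TPM, 0.21 with unfiltered TPM and 0.43 without both libraries numbered 3. SERPINI1 was 0.19 with limma-voom, 0.25 and 0.45 with filtered TPM and 0.25 with unfiltered TPM, and it was -1.24, the same sign as reported, without both libraries numbered 3. Without one library the ranges were -0.23 to 0.29 for SERPINB9, -4.62 to 4.82 for SERPINE2, -0.81 to 1.28 for SERPINI1, -2.00 to 0.44 for SERPINA1 and -0.34 to 0.37 for SERPINB6. The cause of these changes was not tested beyond the left-out library itself.

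With the replicate number as a block, 20 genes and 0 serpins passed 0.05 (3 serpins at an unadjusted p below 0.05), and the log2 fold changes were 0.000988 for SERPINB9, 0.21 for SERPINE2 and 0.29 for SERPINI1. SERPINA3, high in both libraries numbered 3, moved most, to -3.89 ± 0.68 (SE; adjusted p = 0.109, edgeR's quasi-likelihood test) with the block and to -5.11 (adjusted p = 0.2) without both of those libraries. Deviations of same-numbered clones from their group means correlated across genes at 0.0219, 0.00714 and 0.224 for numbers 1, 2 and 3, so the numbers were not taken as pairs. Only the libraries numbered 3 each correlated best with their own number, as a hint from the data and not from the design. Depth limits the 24 untested serpins.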

Other observations

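The pseudogene SERPINB9P1, next to SERPINB9 and outside the symbols counted as serpin genes, had 5, 2 and 13 counts in ZEB1-KO replicates 1, 2 and 3, against 32, 28 and 21 counts in WT replicates 1, 2 and 3. Its levels did not overlap between groups, at 0.235 CPM ± 0.178 in ZEB1-KO and 0.816 CPM ± 0.0720 in WT clones (SD, n = 3 each). The log2 fold change was -1.82 ± 0.64 (SE), and its adjusted p of 0.193 by edgeR's quasi-likelihood test missed 0.05, while SERPINB9 itself was at -0.04. A pseudogene can share reads with its parent gene, so its count is uncertain.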
